A study of Homo sapiens with 4 samples.

Results

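Transcripts were compared between the 2 of 4 H9 libraries in which reverse transcription (RT) followed tagmentation, called Post. One, labelled RNA_only, is called Post RNA-only. The other, labelled H3K27me3_H3K27ac, RNA, had DNA profiled too and is called Post dual. The members were chosen by these labels, with no measured value. The remaining pair, Pre RNA-only and Pre dual, had RT before tagmentation, and it shares no library with the Post pair. Pairs of values for the Pre libraries are given in that order throughout. The comparison addresses whether profiling chromatin in the same nuclei alters the transcriptome that is read. H9 is an established line of human primed pluripotent stem cells, grown here in Essential8 medium on Geltrex. In all 4 libraries nuclei were extracted, fixed in 0.2% formaldehyde and used for RT from poly(A) tails. In the DNA-profiled libraries, Tn5 transposase bound through protein A to antibodies against H3K27me3 and H3K27ac cut DNA near these marks. How far the RNA-only libraries were taken through tagmentation is not given in the sources used here, nor whether the libraries came from 1 culture.

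Each condition was 1 library, so no difference has a replicate check and no test was possible. All intervals are at 95% and hold counting error alone. Anything else that differed between the libraries, such as the number of nuclei or the barcode, cannot be told apart from DNA profiling.

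H3K27me3 is deposited by Polycomb repressive complex 2 and marks silenced developmental genes, whereas H3K27ac marks active promoters and enhancers. Poly(A) priming in nuclei captures unspliced transcripts along introns as well as finished mRNAs, and long genes therefore give many nuclear reads. Most mRNAs are polyadenylated, but those of replication-dependent histones mostly end in a stem-loop without a poly(A) tail. Ribosomal protein mRNAs are short, abundant and mostly cytoplasmic.

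The Post libraries were told apart by the RT primer. The primers of these libraries are shown because their poly(T) end defines what was copied and the capitals, the 5-base RT index, are the only fixed bases that differ between them. The 8 bases written n are the unique molecular identifier, and 15 T bases follow, the first of which carries biotin. Each primer ends with a base other than T and then any base, which are not shown.
RT primer 03, Post RNA-only: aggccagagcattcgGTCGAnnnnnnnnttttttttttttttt
RT primer 04, Post dual: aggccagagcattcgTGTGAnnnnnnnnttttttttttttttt

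The deposited values were whole-number counts per gene symbol, with totals of 6368721 for Post RNA-only and 10089552 for Post dual. The 6 genes whose symbols start with FP236383 or FP671120 held 34.8% of counts in Post RNA-only (interval 34.8% to 34.9%). They took 15.8% of those of Post dual (15.8% to 15.9%), and 10.7% to 12.3% in the Pre libraries. FP236383.3 alone held 18.9% of the first library and 8.76% of the second, and FP671120.4 held 6.48% and 3.53%. All 6 had the larger share in Post RNA-only. RPM, the counts of a gene scaled to a library total of 1000000, were therefore taken over totals without these genes, which left 4151108 and 8491917 counts, so that 1 count was worth 0.241 RPM and 0.118 RPM. With totals that keep them, every log2 ratio of the Post pair is higher by 0.37 before 1 RPM is added. A gene up to 1.29-fold lower here would then be higher. Medians of the gene lists with at least 3 members past the filter, taken relative to the all-gene median, moved by less than 0.1 and kept their sign under every scaling tried.

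The nuclei expressed the markers of pluripotent cells with and without DNA profiling. Summed over 10 pluripotency markers, Post RNA-only had 3682 RPM and Post dual had 3375 RPM, and the marker with the lowest value stood at 46.3 RPM and 35.3 RPM. Defining markers of other cell types were mostly low. The 8 endoderm and mesendoderm markers summed to 9.15 RPM and 11.7 RPM, with SOX17 and TBXT at 0 in both, and the 5 neuroectoderm markers to 1.93 RPM and 3.18 RPM, with SOX1 at 0 in both. In a wider list of 14 neuroectoderm genes the sums were 312 RPM and 269 RPM, of which NES, a filament protein of progenitor cells, had 235 RPM and 196 RPM. The 8 markers of trophectoderm, amnion and mesoderm summed to 48.9 RPM and 62.4 RPM, with HAND1 at 0 in both. Of these KDR, a receptor of vascular endothelial growth factor, had 28.7 RPM and 40.9 RPM, 1.43-fold higher with DNA profiling (1.15 to 1.77). Among genes the study follows during endoderm differentiation, CXCR4 had 0.482 RPM and 0.353 RPM, GATA6 0.723 RPM and 0.824 RPM, and WNT3 7.95 RPM and 5.53 RPM. For CXCR4, GATA6 and WNT3 no difference was detectable at this depth. A count of 0 allows up to 3 counts.

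With DNA profiling in the Post pair, many short mRNAs took a smaller share of the transcriptome, and almost no gene took a share at least 2-fold larger. In such bulk libraries, fewer nuclei with a transcript and less of it per nucleus cannot be told apart. Ratios are DNA profiling over RNA only, on the log2 scale after adding 1 RPM, which understates the difference of low genes. Of 12551 genes whose mean over the 4 libraries was 10 RPM or more, called measured below, 282 were at least 2-fold lower (2.25% of genes) and 10 at least 2-fold higher (0.0797%). In the Pre pair, 2 genes were at least 2-fold lower (0.0159%) and 0 at least 2-fold higher (0%). These 2 were RMRP and AC007952.4. The median log2 ratio was 0.02 in the Post pair, with a standard deviation over genes of 0.37, and -0.00019 in the Pre pair, with a standard deviation of 0.16. Over the 2615 genes averaging 100 RPM or more, where counting error is small, the standard deviations were 0.36 and 0.10. With totals that keep the FP236383 and FP671120 genes the Post pair had 104 genes higher and 84 lower, in place of 10 and 282.

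**Figure D1:**
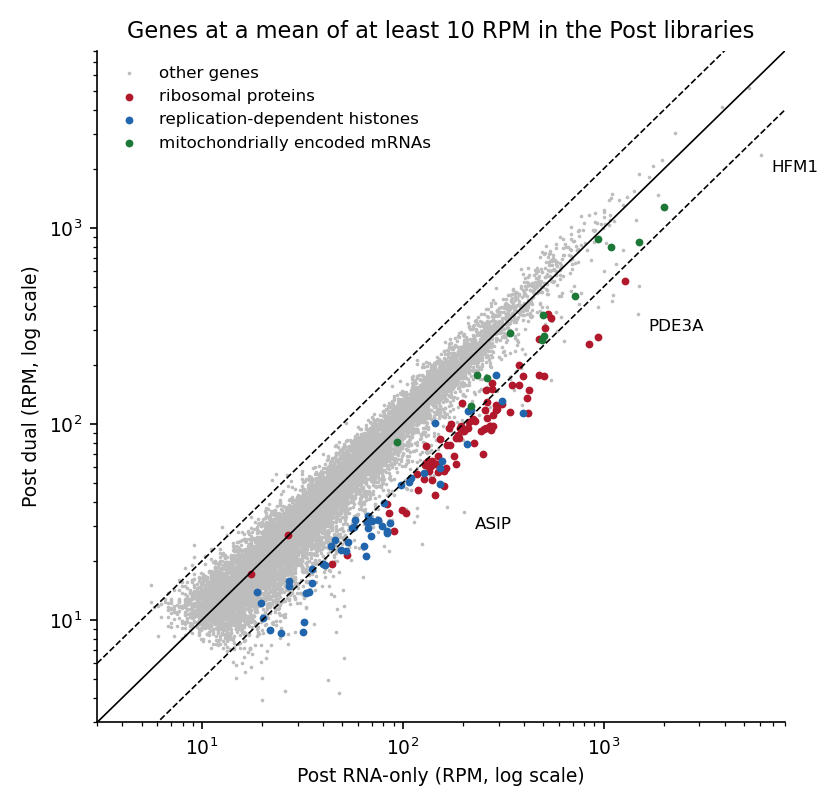
Each point is 1 measured gene, with its RPM in Post RNA-only on the horizontal axis and in Post dual on the vertical axis, both logarithmic. The solid line marks equal RPM and the dashed lines 2-fold. The 83 ribosomal protein mRNAs (red) and 50 replication-dependent histones (blue) lie mostly along or beyond the lower dashed line, and the 13 mitochondrially encoded mRNAs (green) between the lines.

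All 282 lower genes had their highest RPM of the 4 libraries in Post RNA-only, beside 32.0% of all genes. In 205 of them Post dual was also the lowest of the 4, beside 28.0% of all genes. In the Pre pair the median log2 ratio of these 282 genes was 0.14, with 206 above the all-gene median and 76 below it. Summed, the 282 genes took 4.51% of the counts scaled in Post RNA-only and 1.74% in Post dual, compared with 1.88% and 2.04% in the Pre libraries. By these sums Post RNA-only lay farthest from the other libraries, and Post dual lay below both Pre libraries. The choice of genes lower in the Post pair favoured Post RNA-only as the highest library in advance. So did a filter mean that includes it. Post RNA-only also had the smallest total and the largest share of FP236383 and FP671120 counts. The part of these in the differences was not tested. All 10 higher genes had their lowest RPM in Post RNA-only, beside 37.2% of all genes. Only sizes chose these genes, so the position of the chosen libraries is a description. At the threshold, the higher gene just inside was GALNT16 at 1.02 and the gene just outside stood at 0.99.

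Cytosolic ribosomal protein mRNAs made up the largest lower group, with 67 of the 83 measured members at least 2-fold lower and 0 higher. RPL26L1, the only other listed member, was below 10 RPM. The median log2 ratio was -1.13 over 50 large-subunit members and -1.35 over 33 small-subunit members, beside 0.02 for all genes. Of the 83, 82 lay below the all-gene median in the Post pair and 81 above it in the Pre pair, where the list medians were 0.15 and 0.20. Summed over all 84 listed genes, Post RNA-only had 21303 RPM and Post dual had 9173 RPM, a 2.32-fold lower sum (2.30 to 2.34). The Pre libraries had 11807 RPM and 13261 RPM. Post RNA-only was the highest library for 82 of the 83 and Post dual the lowest for 81.

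RPLP1, a protein of the ribosomal stalk, had 848 RPM in Post RNA-only and 257 RPM in Post dual, with 396 and 478 RPM in Pre RNA-only and Pre dual. It was 3.30-fold lower with DNA profiling in the Post pair (3.13 to 3.48). RPS23, a small-subunit protein near the decoding center, had 937 RPM and 276 RPM in the Post libraries and 243 and 290 RPM in the Pre libraries, a 3.39-fold lower value (3.22 to 3.57). For RPS23 the DNA-profiled Post library stood among the Pre libraries, whereas for RPLP1 it stood below both. Not all members passed 2-fold. RPL6 was 1.44-fold lower (1.36 to 1.52), RPL4 1.59-fold (1.5 to 1.68) and RPS6 1.88-fold (1.76 to 2.02). The only members within 0.1 of equal RPM on the log2 scale were the paralogs RPL39L, at 26.7 RPM and 27.2 RPM in the Post libraries, and RPS27L, at 17.6 RPM and 17.2 RPM. These were picked after their values were seen. Ribosomal protein genes have many processed pseudogenes, so the split of reads between copies is uncertain.

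Replication-dependent histones, which package newly replicated DNA, were a further group with most measured members at least 2-fold lower. Of 70 listed genes, 50 were measured, and 34 of these were at least 2-fold lower with 0 higher. The H3 genes had the lowest median, -1.48, with 10 of 10 at least 2-fold lower. Medians were -1.08 for H4 (7 of 9 at least 2-fold lower), -1.06 for H2B (8 of 13), -1.06 for H2A (9 of 14) and -0.78 for linker histones H1 (0 of 4). Summed over the 70 genes, Post RNA-only had 4614 RPM and Post dual had 2078 RPM, 2.22-fold lower (2.18 to 2.27), beside 1547 RPM and 1398 RPM in the Pre libraries. Unlike for the ribosomal proteins, the DNA-profiled Post library was seldom the lowest. It was so for 1 of 50 genes, while Post RNA-only was the highest for 50 of 50.

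HIST1H4C (now H4C3, chromosome 6) had the largest difference among histones, with 395 RPM in Post RNA-only and 113 RPM in Post dual, 3.49-fold lower (3.22 to 3.79). It had 113 and 127 RPM in the Pre libraries, so its value in the DNA-profiled Post library was at their level. HIST2H3C (now H3C14) had 153 RPM and 49.6 RPM in the Post libraries and 36.2 and 28.1 RPM in the Pre libraries, 3.09-fold lower (2.72 to 3.5). HIST1H2BD (now H2BC5) had 209 RPM and 78.7 RPM, 2.66-fold lower (2.40 to 2.94), and HIST1H2AM (now H2AC17) had 128 RPM and 55.9 RPM, 2.29-fold lower (2.02 to 2.60). The linker histone HIST1H1B (now H1-5) had 290 RPM and 177 RPM, 1.64-fold lower (1.52 to 1.77). Several of these genes have near-identical copies, which makes the split among them uncertain.

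Replacement histones, which are also made outside S phase and come from polyadenylated mRNAs, were less far apart. Their median log2 ratio was -0.40 over 9 measured genes, and 1 of 9, H2AFZ, was 2.02-fold lower (1.79 to 2.28), which is just at the threshold. H3F3A had 242 RPM and 169 RPM in the Post libraries, and H3F3B 129 RPM and 80.1 RPM. H2AFY, which encodes macroH2A, had 99.5 RPM and 110 RPM. Factors that process histone mRNA 3' ends had a median of -0.17 (positive with those other totals), with LSM10 at least 2-fold lower among 10 measured. Over all genes, 2.25% were at least 2-fold lower. SLBP, the protein that binds the histone stem-loop, was 1.55-fold lower (1.25 to 1.91).

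**Figure D2:**
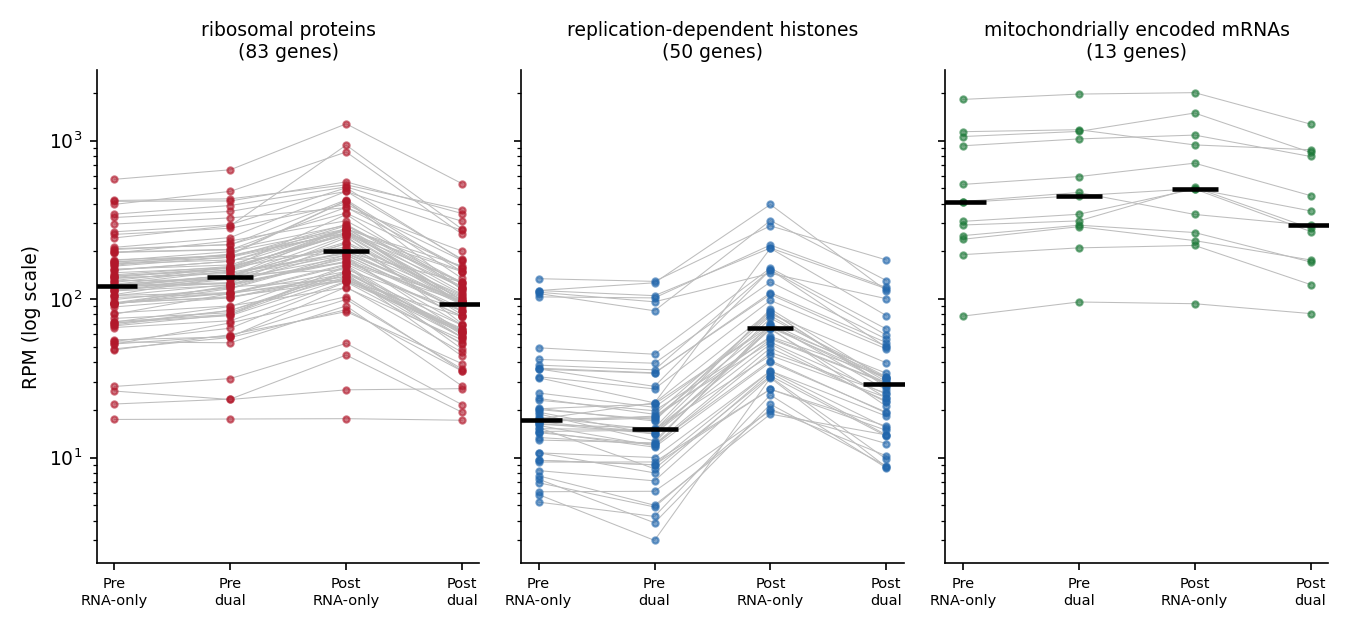
RPM on a logarithmic axis in each of the 4 libraries for ribosomal protein mRNAs (83 genes), replication-dependent histones (50) and mitochondrially encoded mRNAs (13), with a grey line per gene and a black bar at the median. The ribosomal protein median is highest in Post RNA-only and lowest in Post dual, while the histone median is highest in Post RNA-only and stays above the Pre libraries in Post dual.

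Energy metabolism transcripts were lower by a smaller amount. All 13 mitochondrially encoded mRNAs lay below the all-gene median, with a median log2 ratio of -0.61. Of the 13, 0 were at least 2-fold lower, beside 2.25% of all genes. In the Pre pair all 13 lay above the median. MT-CO1, a core subunit of cytochrome c oxidase, had 2009 RPM in Post RNA-only and 1272 RPM in Post dual, with 1820 and 1967 RPM in the Pre libraries, 1.58-fold lower (1.53 to 1.63). MT-CO3 was 1.77-fold lower (1.71 to 1.83) and MT-ND5 1.07-fold lower (1.03 to 1.12), so members of the mitochondrial genome differed among themselves. In the list of mitochondrial ribosomal RNAs and their nuclear copies, 2 of 15 genes were measured and both were at least 2-fold lower. MTRNR2L12 had 199 RPM and 83.1 RPM, 2.39-fold lower (2.16 to 2.64), and MTRNR2L8 had 78.3 RPM and 32.0 RPM, 2.44-fold lower (2.07 to 2.88). Both resemble mitochondrial ribosomal RNA, so the source of their reads is uncertain. Nuclear genes for complexes II to V had a median of -0.77, with 12 of 41 at least 2-fold lower and 40 of 41 below the all-gene median. ATP5F1B, a catalytic subunit of ATP synthase, had 215 RPM and 122 RPM, 1.76-fold lower (1.61 to 1.92). Complex I genes had a median of -0.53 with 1 of 36 at least 2-fold lower, near the 2.25% of all genes. Over the subset of complex I members averaging 50 RPM or more, however, the median was 0.05 above that of all genes. The 3 complex I members with the most RPM, NDUFS1, NDUFA10 and NDUFV2, had log2 ratios of 0.13, 0.27 and -0.30.

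Other lists of basic cell functions also had medians below that of all genes. Mitochondrial ribosomal proteins had a median log2 ratio of -0.46 (5 of 70 at least 2-fold lower) and translation factors of -0.42 (1 of 38). Beside the 2.25% of all genes, a count of 0 or 1 in lists of this size is near the background. EEF1A1, which delivers aminoacyl-tRNA to the ribosome, had 1155 RPM and 651 RPM in the Post libraries and 751 and 790 RPM in the Pre libraries. Actins, tubulins and actin regulators had a median of -0.70 (3 of 24), with ACTB at 1244 RPM and 771 RPM. Glycolysis genes had a median of -0.40 (1 of 20), and the 1 was GAPDH, at 941 RPM and 396 RPM in the Post libraries and 545 and 602 RPM in the Pre libraries, 2.38-fold lower (2.27 to 2.49). Chaperones had a median of -0.40 (0 of 25) and snoRNA host genes of -0.39 (4 of 21). The 4 included RACK1, a ribosome-bound scaffold, which was 2.23-fold lower (2.05 to 2.43), and SNHG8, which was 4.34-fold lower (3.40 to 5.56). SNHG14, an imprinted host transcript of very many snoRNAs, had 5308 RPM and 5153 RPM, nearly equal.

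Proteasome subunits (median -0.34, 2 of 31 at least 2-fold lower), endoplasmic reticulum factors (-0.34, 3 of 23), G2 and M phase genes (-0.28, 0 of 32), splicing factors (-0.18, 2 of 36) and S phase genes (-0.14, 2 of 35) lay closer to all genes. Their medians were below that of all genes but turn positive with totals that keep the FP236383 and FP671120 genes, as happens for 12 lists in all. Beside their counts of lower members, 2.25% of all genes were at least 2-fold lower. The noncoding RNA of RNase MRP, RMRP, had 1002 RPM and 603 RPM in the Post libraries and 152 and 63.1 RPM in the Pre libraries. It was lower with DNA profiling in both orders, with log2 ratios of -0.73 and -1.26.

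Pluripotency and chromatin genes lay nearer to all genes than ribosomal protein and histone genes. The core pluripotency list had a median log2 ratio of -0.11, with 0 of 23 measured members at least 2-fold lower (2.25% of all genes), 8 above the all-gene median and 15 below it. POU5F1, a master factor of pluripotency, had 284 RPM in Post RNA-only and 176 RPM in Post dual, with 197 and 213 RPM in the Pre libraries, 1.61-fold lower (1.49 to 1.74). SOX2 had 128 RPM and 111 RPM, 1.16-fold lower (1.04 to 1.29), and NANOG 46.3 RPM and 35.3 RPM, 1.31-fold lower (1.09 to 1.57). POU5F1 was thus farther apart than its partners by size, although none reached 2-fold. L1TD1 had 997 RPM and 995 RPM, and DNMT3B, a de novo DNA methyltransferase, had 566 RPM and 617 RPM. Genes of the primed state had a median of -0.33 with 0 of 17 at least 2-fold lower. Both medians turn positive with totals that keep the FP236383 and FP671120 genes.

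The machinery of the profiled marks lay close to all genes. With 2.25% of all genes lower and 0.0797% higher, the 0 members called in either direction say nothing particular about it. Polycomb repressive complex 2 had a median log2 ratio of -0.06 over 10 genes (positive with totals that keep the FP236383 and FP671120 genes), Polycomb repressive complex 1 of 0.09 over 14, and the writers, readers and erasers of H3K27 acetylation and methylation of 0.12 over 13. JARID2, which helps recruit Polycomb repressive complex 2, had 1082 RPM in Post RNA-only and 1424 RPM in Post dual, 1.32-fold higher (1.27 to 1.36), beside 1505 and 1457 RPM in the Pre libraries. KDM6A, a demethylase of H3K27me3, had 307 RPM and 329 RPM, and the acetyltransferase EP300 had 219 RPM and 237 RPM. HOX genes, classical Polycomb targets, had 0 measured members. Their 39 listed genes summed to 18.8 RPM and 26.0 RPM in the Post libraries and 7.66 and 9.12 RPM in the Pre libraries. The sum was 1.39-fold higher with DNA profiling in the Post pair (1.07 to 1.82), a low total that rests on few counts.

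Of the lists with at least 3 measured members, few lay above the all-gene median, and their medians were close to it. The list of trophectoderm, amnion and mesoderm markers had 2 measured members, KDR and COL1A1, and a median of 0.33. Its 16 genes summed to 55.2 RPM in Post RNA-only and 74.5 RPM in Post dual, 1.35-fold higher (1.16 to 1.58). Very long genes had a median log2 ratio of 0.16, with 34 of 39 above the all-gene median. Of the 39, 0 were at least 2-fold apart, beside 2.25% of all genes lower and 0.0797% higher. PTPRG, a receptor tyrosine phosphatase, had 2257 RPM in Post RNA-only and 3044 RPM in Post dual, 1.35-fold higher (1.32 to 1.38), with 3072 and 2996 RPM in the Pre libraries. Nuclear long noncoding RNAs had a median of 0.11, with MALAT1 at 1689 RPM and 1813 RPM and XACT at 1949 RPM and 2220 RPM. Signalling genes had a median of 0.06, with 18 above and 18 below the all-gene median, and relative to it the median was -0.05 at a mean of 1 RPM or with no filter. TCF7L1, a transcription factor of the WNT pathway, was 1.47-fold higher (1.39 to 1.55).

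**Figure D3:**
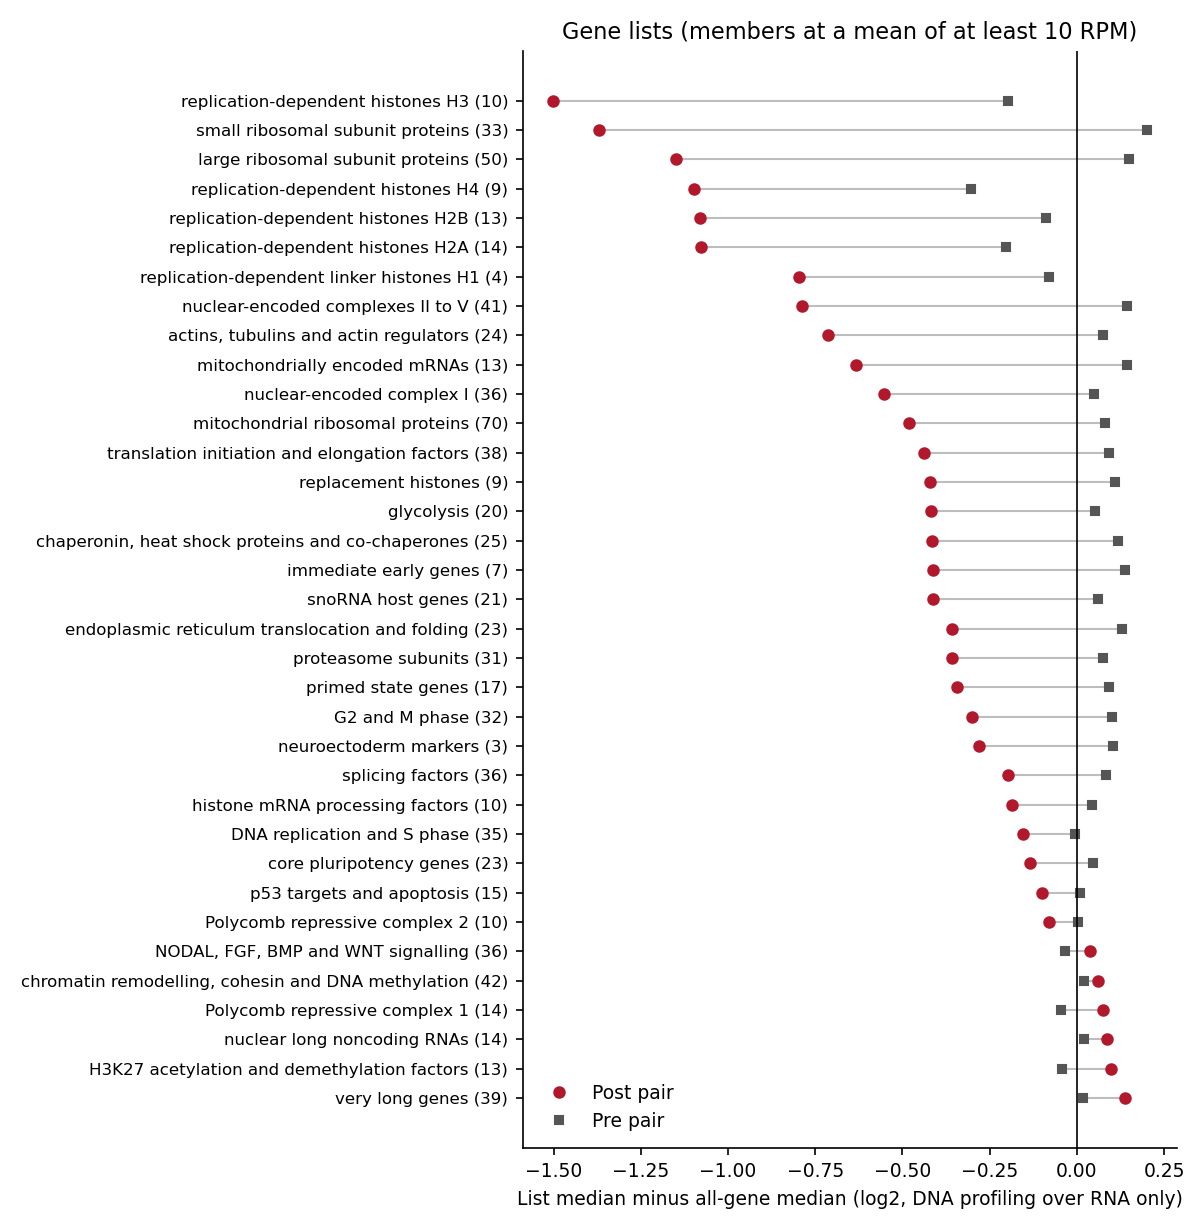
Median log2 ratio of each gene list minus the median of all genes, for the Post pair (red circles) and the Pre pair (grey squares), and the count of measured members in brackets. Lists with at least 3 measured members are drawn. In the Post pair they range from -1.5 for H3 histones to 0.14 for very long genes, and ribosomal protein lists lie on opposite sides of 0 in the 2 pairs.

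Over listed and unlisted genes together, the lower genes were mostly short. Of the 12551 genes, 11229 had a place in GENCODE release 44 on GRCh38, 253 of them lower. The median length from first to last exon was 4904 bases for lower genes and 48883 bases for all. Genes under 10000 bases made up 189 of the 253 lower genes (74.7%) and 1162 of all placed genes (10.3%). In 5 bins of equal gene number, from the shortest genes to the longest, the median log2 ratio was -0.34, -0.08, 0.02, 0.10 and 0.18, and 208, 20, 8, 7 and 10 genes were lower. In the Pre pair the order ran the other way, with medians of 0.07, 0.01, -0.01, -0.02 and -0.03. Spearman's rank correlation across genes, which are not independent replicates and share their libraries, was 0.52 in the Post pair and -0.21 in the Pre pair.

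The order by length was also present outside the leading groups. Without the histone, translation and mitochondria lists, a choice made after the data were seen, the medians by bin were -0.28, -0.07, 0.02, 0.10 and 0.18. Rank correlations with other features were smaller, 0.29 for exonic length, 0.28 for the number of exons and 0.10 for GC content. The lower genes were nonetheless gathered by these features too. The bin of shortest exonic length held 198 of them, 8.81% of that bin. Their median exonic length was 916 bases, beside 3650 for all, and their median number of exons 5, beside 10. Median GC content was 54.0% and 46.7%, and the share of lower genes was 0.62% in the lowest GC bin and 4.23% in the highest. Of 5 bins by mean RPM, the lowest had a median of -0.02 with 61 lower genes, and the highest 0.08 with 68, so lower genes were not gathered at low RPM. Long noncoding RNAs had a median of 0.12 over 656 genes and protein-coding genes of 0.01 over 10566. By chromosome, the share of lower genes was highest on chromosome 6 (6.01%), where most histone genes lie, and chromosome 19 (4.62%).

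**Figure D4:**
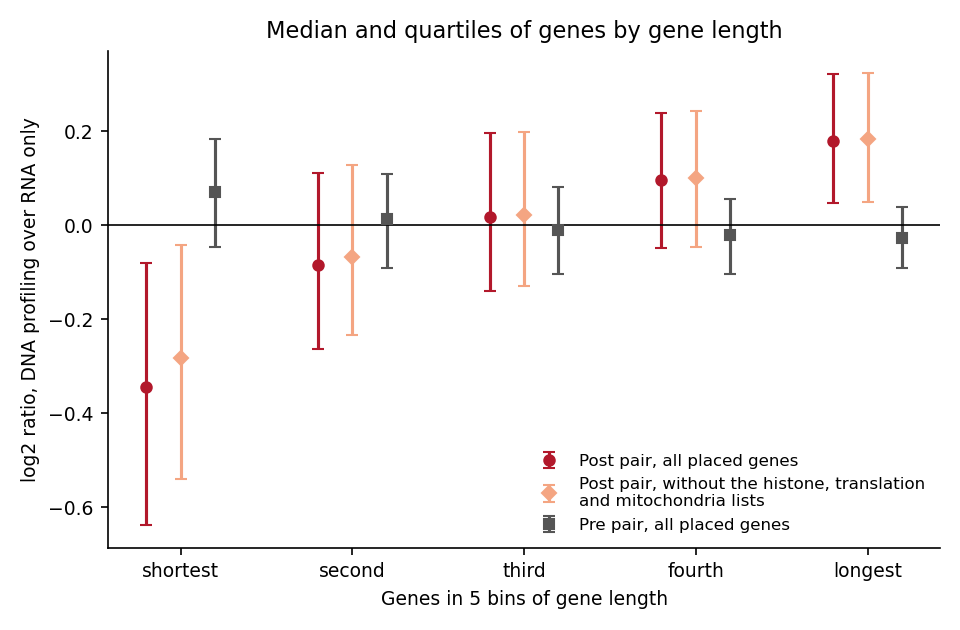
Median log2 ratio, DNA profiling over RNA only, with bars to the quartiles, for genes in 5 bins of gene length in the Post pair (red circles), in the Post pair without the histone, translation and mitochondria lists (orange diamonds) and in the Pre pair (grey squares). In the Post pair the medians run from -0.34 in the shortest bin to 0.18 in the longest.

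Of the 282 lower genes, 141 were in none of the 41 lists. Of these, 116 had a place and 111 were annotated as protein-coding. Over the 116 with a place, the median length was 6230 bases and 74 were under 10000 bases. Of all 141, 105 were lowest of the 4 libraries in Post dual. Chosen after their values were seen, examples were FTL, the ferritin light chain, at 118 RPM and 37.3 RPM in the Post libraries, UBB, a polyubiquitin gene, at 269 RPM and 129 RPM, GSTP1, a glutathione transferase, at 214 RPM and 95.3 RPM, and MIF at 160 RPM and 59.5 RPM. Their Pre log2 ratios were 0.27, 0.08, 0.26 and 0.26. Such genes resembled the ribosomal proteins in length and in order of libraries. Some others of the 141 passed the 10 RPM filter only through Post RNA-only, so a lower ratio was favoured for them in advance. TLCD1, for example, had 18.8 RPM in Post RNA-only, 8.24 RPM in Post dual, and 6.32 and 9.62 RPM in the Pre libraries. The number of such genes among the 282 was not counted.

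The single genes farthest apart were mostly not housekeeping genes. SLC26A3, an intestinal anion exchanger on chromosome 7 from 107765467 to 107803225, had 48.2 RPM in Post RNA-only and 4.24 RPM in Post dual, with 10.2 and 12.6 RPM in the Pre libraries. It was 11.4-fold lower (7.94 to 16.7), from 200 and 36 counts. UNC45B, a myosin chaperone on chromosome 17, had 50.8 RPM and 6.36 RPM, 7.99-fold lower (5.9 to 11), and 4.1 and 3.0 RPM in the Pre libraries. ASIP, the agouti signalling protein on chromosome 20, had 203 RPM and 35.3 RPM, 5.73-fold lower (5.02 to 6.56), and 59.2 and 72.2 RPM in the Pre libraries. For SLC26A3 and ASIP the DNA-profiled Post library was the lowest of the 4, whereas for UNC45B it lay nearest to the Pre libraries. SP100, a nuclear body protein, was 5.92-fold lower (4.04 to 8.85) and COL6A3 5.15-fold (3.40 to 7.95). Also among the 12 farthest apart were ANKRD30BL, SNHG8 and PDE3A and the unplaced AL021155.5, AC007952.4 and AC012447.1. AL021155.5 had 42.4 RPM and 4.95 RPM, AC007952.4 124 RPM and 24.3 RPM, and AC012447.1 46.7 RPM and 8.71 RPM. The 10 RPM filter takes the mean over all 4 libraries, Post RNA-only included. Of the genes named here, SLC26A3, UNC45B, SP100, AL021155.5 and AC012447.1 averaged under 10 RPM over the other libraries. They passed the filter only through Post RNA-only, so a lower ratio was favoured for them in advance.

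The 10 higher genes were modest in size and of low counts. The largest ratios were those of LINC00106, with 9.15 RPM in Post RNA-only and 24.0 RPM in Post dual, 2.62-fold higher (1.85 to 3.82), and of AC106795.2, with 5.54 RPM and 15.1 RPM, 2.72-fold higher (1.74 to 4.45). PHF2, a histone demethylase of the PHD finger family, had 12.5 RPM and 29.8 RPM, 2.38-fold higher (1.76 to 3.27), and 30.0 and 26.0 RPM in the Pre libraries. DANT1 had 22.4 RPM and 51.8 RPM in the Post libraries and 53.1 and 55.4 RPM in the Pre libraries. For PHF2 and DANT1 the library apart was Post RNA-only, below the other 3. AC092275.1, LINC01001, TMC7, LINC02654, SPDYE2 and GALNT16 were between 2.07-fold and 2.36-fold higher. No higher gene had an interval wholly beyond 2-fold, whereas 142 of the lower genes did.

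**Figure D5:**
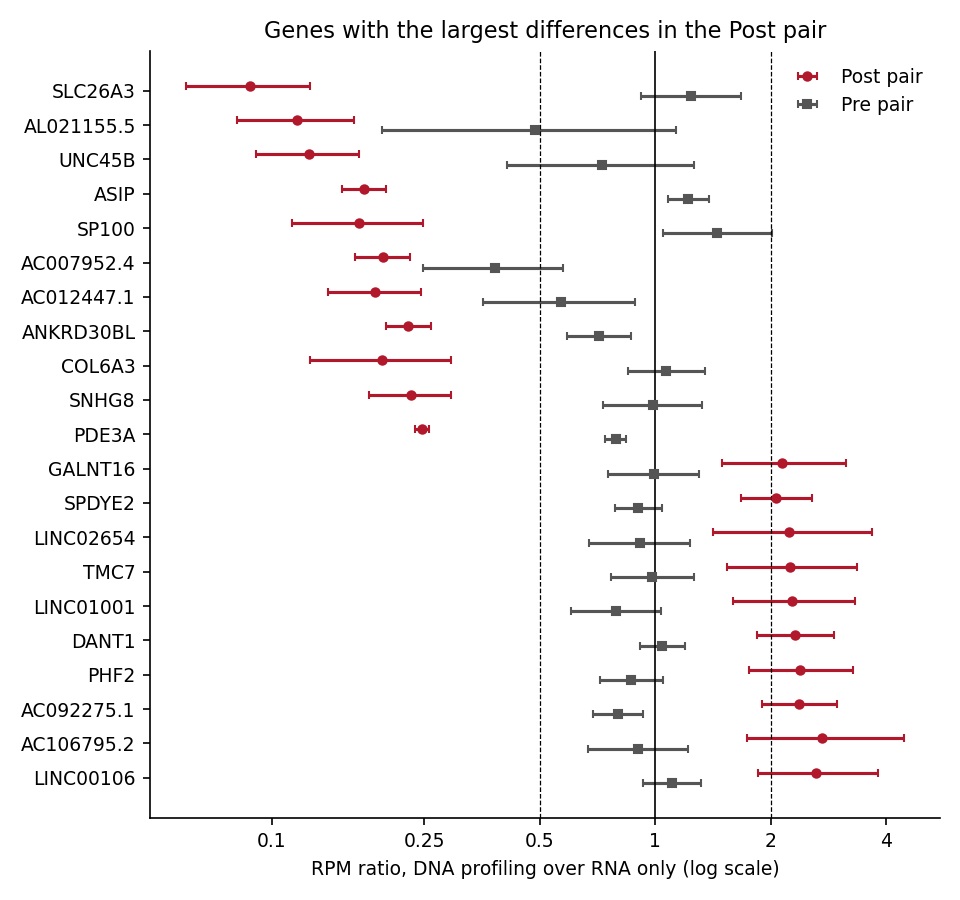
Ratio of RPM, DNA profiling over RNA only, on a logarithmic axis with 95% counting intervals, for 11 lower genes among those farthest apart and the 10 higher genes, in the Post pair (red circles) and the Pre pair (grey squares). Dashed lines mark 2-fold. Post ratios of the lower genes run from 11.4-fold to 4.05-fold lower, and those of the higher genes lie between 2.07 and 2.72.

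Some lower genes hold a stretch that resembles another abundant transcript. HFM1, a meiotic helicase gene on chromosome 1, had 6060 RPM in Post RNA-only and 2350 RPM in Post dual, 2.58-fold lower (2.53 to 2.63), and 1201 and 1074 RPM in the Pre libraries. PDE3A, a phosphodiesterase on chromosome 12, had 1475 RPM and 364 RPM, 4.05-fold lower (3.88 to 4.23), and 273 and 216 RPM in the Pre libraries. Introns of HFM1, PDE3A and UNC45B hold segments at least 95% identical to the 45S ribosomal RNA precursor gene on chromosome 21. The segments of HFM1 and PDE3A lie on the strand of their gene, and that of UNC45B on the opposite strand. Whether the counts came from these segments was not tested, since the files give 1 value per gene. The segments are shown from GRCh38 as they read along the precursor, with bases that differ from it in capitals. That of PDE3A is whole (chr12:20551424-20551571, forward strand), that of UNC45B is whole (chr17:35151094-35151256, reverse strand), and that of HFM1 is a stretch of 120 of its 366 bases (chr1:91387472-91387591, reverse strand).
PDE3A: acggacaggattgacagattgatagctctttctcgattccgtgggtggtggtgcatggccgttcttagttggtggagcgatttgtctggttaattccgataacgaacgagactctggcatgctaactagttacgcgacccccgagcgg
UNC45B: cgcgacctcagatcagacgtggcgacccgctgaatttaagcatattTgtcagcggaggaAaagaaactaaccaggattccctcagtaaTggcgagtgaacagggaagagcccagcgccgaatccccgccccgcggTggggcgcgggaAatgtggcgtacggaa
HFM1: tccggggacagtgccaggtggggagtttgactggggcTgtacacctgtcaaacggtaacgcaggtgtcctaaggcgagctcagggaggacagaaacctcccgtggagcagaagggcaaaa

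The PDE3A segment matched the precursor at all 148 bases, the UNC45B segment differed at 5 of 163, and the HFM1 stretch at 1. Such segments of at least 100 bases were found in 73 placed genes (0.650%) and in 4 of the 253 lower ones (1.58%), the other being ANKRD30BL, whose segments are 80.5% and 83.2% identical. The 73 genes had a median log2 ratio of 0.13. Of the 8 genes with a segment at least 95% identical, 3 were lower, beside 253 of all 11229 placed genes. Of these 3, UNC45B passed the filter only through Post RNA-only, so its lower ratio was favoured in advance. SLCO5A1, AAMDC, PID1, INTS4 and PMF1 were at -0.62, -0.14, -0.11, 0.13 and 0.19, and AAMDC and INTS4 overlap the same segment. Most of the 73 genes were not lower, but they include weak matches, such as 69.4% identity in LINC01492. The number of lower genes among the 8 is a description of few genes, and the part of the segments in the counts was not tested.

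Among the 5615 placed genes of at least the median length, 22 were lower, and 8 of these 22 (36.4%) overlap a ribosomal protein gene or pseudogene. The share was 9.24% of all such long genes. ATG10, an autophagy gene on chromosome 5, overlaps RPS23 and had 1107 RPM in Post RNA-only and 453 RPM in Post dual, with 410 and 470 RPM in the Pre libraries. NKIRAS1 overlaps RPL15 and had 294 RPM and 146 RPM. WDR47 and PIGK hold copies of RPL17 and were 2.60-fold lower (2.27 to 2.98) and 2.29-fold lower (2.09 to 2.5). The strand setting of the counting is not given in the sources used here, so reads of these genes and of those they overlap cannot be told apart.

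The numbers of genes detected with and without DNA profiling were close once depth was equal. A count was found for 29600 genes in Post RNA-only and 31693 in Post dual, the more deeply sequenced. Genes with a count in Post dual alone numbered 2951 and none exceeded 2.71 RPM, and those in Post RNA-only alone numbered 858 and none exceeded 1.20 RPM. After thinning to 4151108 counts the numbers were 29600 and 29775, with 1994 genes in Post dual alone and 1819 in Post RNA-only alone. By level, 2502 and 2527 genes stood at 100 to 1000 RPM and 10151 and 9933 at 10 to 100 RPM. Pearson's r of log2 RPM over genes was 0.986 in the Post pair and 0.994 in the Pre pair, as a description of genes that share libraries.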

How the data were processed

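RNA was measured in 4 H9 libraries. The authors deposited whole-number counts per gene symbol from reads aligned to GRCh38, without duplicates. Per the labels, Bowtie 1.3.1, Bowtie2 2.5.3, STAR 2.7.11b, Trim Galore 0.6.10 and SAMtools were used. The annotation is not given in the sources used here. Another 60 barcode columns, without a label, were not used. Counts were scaled to RPM over totals without 6 FP236383 and FP671120 genes, and 1 RPM was added before log2. A gene was called at 2-fold and 10 RPM on average over the 4 libraries, with no test, since each condition is 1 library. Ratio intervals are exact 95% binomial intervals. Symbols were matched to GENCODE 44, directly for 21839 genes and by an older name for 490, with 11305 unmatched. Segments like the 45S gene (chromosome 21, 8433222 to 8446572) of at least 100 bases came from BLAST 2.17.0. Primer sequences came from the study's oligo table. Genes named are the 12 farthest apart per direction, those above 2000 RPM in a Post library, the 3 members of each list with the most RPM and those the study names, with exceptions stated. The comparison, its lists and members were chosen with earlier results of these data known. Steps were tested on simulated data. R 4.3.3, edgeR 4.0.16, DESeq2 1.42.0, Python 3.11.15, pandas 2.3.3 and scipy 1.17.1 were used. Alternatives were other scalings, filters, pseudocounts, folds and thinning. A few genes are not reported here, and DNA libraries were not analysed here.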

Additional observations from a re-analysis of the deposited data

Results flagged for a closer look

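Some gene lists stood on opposite sides of the all-gene median in the Post and Pre pairs, by at least 0.1 each, and no such difference was tested. The Post minus Pre difference of the relative list medians (log2) was -1.57 for small and -1.30 for large ribosomal subunit proteins. It was -0.93 for nuclear-encoded complexes II to V, -0.78 for mitochondrially encoded mRNAs, -0.55 for immediate early genes (7 measured), -0.53 for replacement histones and -0.53 for chaperones. It was -0.49 for endoplasmic reticulum factors, -0.40 for G2 and M phase genes and -0.38 for neuroectoderm markers (3 measured). Among single genes farthest apart in the Post pair, ASIP and SP100 went the opposite way in the Pre pair, where their log2 ratios were 0.28 and 0.48, with differences of -2.77 and -2.81. SLC26A3 also had opposite signs, -3.23 and 0.28, but its Pre ratio of 1.24 had an interval (0.916 to 1.67) that holds 1, and only genes whose Pre interval excludes 1 were taken. AC092275.1 was higher in the Post pair and lower in the Pre pair, with a difference of 1.52. Outside the genes compared, the FP236383 and FP671120 genes held 34.8% of the counts of Post RNA-only, against 10.7% to 15.8% in the other libraries.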

How the results depend on the processing

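No paired analysis was possible because each group is 1 library. The main counts were 10 genes higher and 282 lower. RPM over all counts gave 104 higher, 84 lower and an all-gene median of 0.38 in place of 0.02. A filter at a mean of 1 RPM gave 170 and 464, at 50 RPM 0 and 117, and no filter 254 and 493. Protein-coding genes alone gave 4 higher, and a pseudocount of 5 RPM gave 3 higher. A threshold of 1.5-fold gave 249 and 937, 3-fold gave 0 and 41, and intervals wholly beyond 2-fold gave 0 and 142. Without the histone, translation and mitochondria lists, a choice made after seeing the data, 158 remained lower. Other alternatives (median of ratios, TMM, leaving the 20 most abundant genes out of totals, 10 RPM over the Post libraries, a pseudocount of 0.5 RPM, thinning and 2-fold from the all-gene median) left both counts within 1.5 times, and no gene called and named changed sign. The cause of the other differences was not tested, apart from the filters and folds, which admit other genes. Relative list medians moved by 0.1 or more in 19 values and by less in 419. Ratios of named genes left their counting interval in 135 values and stayed within it in 873. The sign of a list changed for signalling at a mean of 1 RPM and with no filter (-0.05 each), for complex I at 50 RPM (0.05) and for neuroectoderm markers with no filter (0.13). Depth limits low genes, since 1 count is 0.241 RPM in Post RNA-only, and 1 library a side leaves the spread between libraries unknown.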
